A study of Mus musculus with 27 samples.

Results

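The levels of 10 genes of the endothelial and hemangioblast program were followed through the differentiation of mouse embryonic stem cells toward induced Sertoli-like cells. The 10 genes, chosen by symbol, were *Etv2*, *Lmo2*, *Fli1*, *Kdr*, *Flt1*, *Tek*, *Tie1*, *Eng*, *Cdh5* and *Pecam1*. They are 10 of the 48795 genes listed for each library, and all 10 are among the 20839 genes kept by the filter on low counts. RNA was sequenced in 27 libraries that fall into 9 groups of 3. All groups descend from 1 clone (clone 7) of XY cells of the F1 strain C57BL/6 x CBA. All of them, the starting cells included, carry the TESCO-CFP reporter, in which a testis enhancer of *Sox9* drives CFP, and the R26-rtTA allele, which allows genes to be switched on with doxycycline.

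ESC are the undifferentiated cells. EpiSC are epiblast-like cells made over 60 hours with Activin A at 20 ng/ml, KSR at 1% and bFGF at 12 ng/ml. M are early mesoderm-like cells made from EpiSC with bFGF (20 ng/ml), BMP4 (10 ng/ml) and the PI3-kinase inhibitor LY294002 (10 µM) over 36 hours. IM1 to IM5 are intermediate mesoderm-like cells made from M over 3.5 days, all with bFGF (5 ng/ml) and BMP4 (20 ng/ml). IM1 received nothing more. IM3 received retinoic acid (RA, 100 nM), IM2 received RA and Activin A (10 ng/ml), IM4 received RA and CHIR99021 (0.3 µM), an inhibitor of GSK3 that raises Wnt signalling, and IM5 received all of these agents. iSLC were IM3 cells given lentiviral, doxycycline-inducible *Nr5a1* and *Dmrt1*, moved to a Sertoli medium, treated with doxycycline (2 µg/ml) for 4 days and sorted for CFP. This medium held Activin A (50 ng/ml), EGF, FSH, FGF9, prostaglandin and testosterone. The bFGF, BMP4 and RA given to IM3 were not added to it. The iSLC group therefore differs from IM3 in transgenes, medium, time and sorting at once, and these cannot be told apart. The study calls the 3 libraries of a group biological replicates. The labels give no more than a number for each, and all descend from the same clone, so the p-values measure the spread between these libraries.

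In the early embryo, endothelial and blood cells arise from mesoderm that carries the VEGF receptor Kdr, and a bipotent precursor of both, the hemangioblast, has been described. The ETS factor Etv2 acts briefly and early in this step. Fli1, a related ETS factor, and Lmo2, an adaptor that links Tal1 with GATA factors on DNA, then keep the program going. Vessel walls are recognised by the junction proteins VE-cadherin (Cdh5) and PECAM-1 (Pecam1), by the VEGF receptors Kdr and Flt1, by the angiopoietin receptor Tek with its relative Tie1, and by endoglin (Eng), a co-receptor for TGF-beta and BMP ligands. In the developing gonad endothelial cells migrate in from the neighbouring mesonephros and take part in the formation of testis cords.

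Levels are given as TPM, a share of all transcripts scaled per length that can be set side by side between genes. Differences are log2 fold changes from edgeR's quasi-likelihood test on the counts. A gene was called differentially expressed (DE) when its Benjamini-Hochberg adjusted p did not exceed 0.01, its level changed at least 2-fold, and its normalized read count averaged 100 or more both across the 27 libraries and in either group. "Rose" and "fell" refer to DE genes. Total expected counts per library ran from 35923040 to 84876603, with a median of 61504816. In these bulk samples, a larger share of cells of a type and more RNA per cell cannot be told apart.

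Genes of adult red blood cells split the libraries by group. ESC, M and both IM3 and IM4 (12 libraries) had a summed level of 6 such genes of 4.02 to 27.6 CPM (counts scaled to library size). The other groups, which are EpiSC, iSLC and the remaining IM conditions (15 libraries), had 0.375 to 1.38 CPM. No group lay on both sides. Comparisons across the sides, such as IM3 against IM1, therefore move with this level, and its part in them was not tested. Comparisons within a side are IM3 against M, IM4 against IM3, IM2 against IM1 and IM5 against IM2.

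The promoter sequences of *Etv2*, *Tek* and *Tie1* are shown because *Etv2* is the early factor of the program and because *Tek* and *Tie1*, which code for partner receptors, took different courses among the IM conditions. Each is the stretch from 250 bases before to 50 bases after the gene's start in RefSeq, on GRCm38.p6, written 5′ to 3′ on the gene's strand. Capitals mark matches, on either strand, to the core letters of ETS sites (AGGAAG or CGGAAG) and of GATA sites (AGATAA or TGATAA). The *Etv2* promoter lies at chr7:30635803-30636102 on the minus strand, that of *Tek* at chr4:94739039-94739338 on the plus strand and that of *Tie1* at chr4:118489800-118490099 on the minus strand. In GENCODE, which gave the gene positions below, *Tie1* starts further upstream, at 118490061. Most of the *Tie1* window therefore lies inside that gene span.
Etv2: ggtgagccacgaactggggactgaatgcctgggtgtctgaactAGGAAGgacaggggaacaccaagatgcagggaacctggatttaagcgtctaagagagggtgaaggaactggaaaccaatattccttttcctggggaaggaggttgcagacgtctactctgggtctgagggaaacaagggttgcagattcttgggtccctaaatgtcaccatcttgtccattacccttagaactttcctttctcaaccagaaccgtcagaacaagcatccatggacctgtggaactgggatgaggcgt
Tek: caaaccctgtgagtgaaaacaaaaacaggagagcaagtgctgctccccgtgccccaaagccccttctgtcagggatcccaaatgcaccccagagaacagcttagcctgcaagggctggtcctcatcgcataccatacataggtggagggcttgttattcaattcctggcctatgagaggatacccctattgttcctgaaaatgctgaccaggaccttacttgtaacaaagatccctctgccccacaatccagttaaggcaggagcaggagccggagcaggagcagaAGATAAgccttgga
Tie1: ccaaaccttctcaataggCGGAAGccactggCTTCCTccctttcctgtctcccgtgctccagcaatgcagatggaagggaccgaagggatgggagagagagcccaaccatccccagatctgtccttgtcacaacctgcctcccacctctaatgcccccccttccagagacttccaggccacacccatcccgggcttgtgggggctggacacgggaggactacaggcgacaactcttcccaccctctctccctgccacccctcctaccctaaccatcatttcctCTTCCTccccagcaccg
RefSeq promoters were at hand for 6 of the 10 genes, the other three being *Kdr*, *Flt1* and *Eng*. The *Tie1* window held 3 ETS matches, *Flt1* and *Eng* held 2 each and *Etv2* held 1, while the windows of *Kdr* and *Tek* held 0. *Tek* was the gene with a GATA match among the 6, with 1 match just after its start. Of 32851 promoter windows of this length, 46.5% held an ETS match and 18.6% a GATA match, so 4 of 6 with an ETS match is a description of these windows and no enrichment was tested. These letters do not show that a factor binds there.

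All 10 genes differed over the 9 groups (edgeR, F test), with adjusted p-values of at most 2.45e-14. The background is high, since 96.4% of all genes tested passed an adjusted p under 0.05 in this test. The plot of levels shows that the 10 genes did not share a single course.

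**Figure D1:**
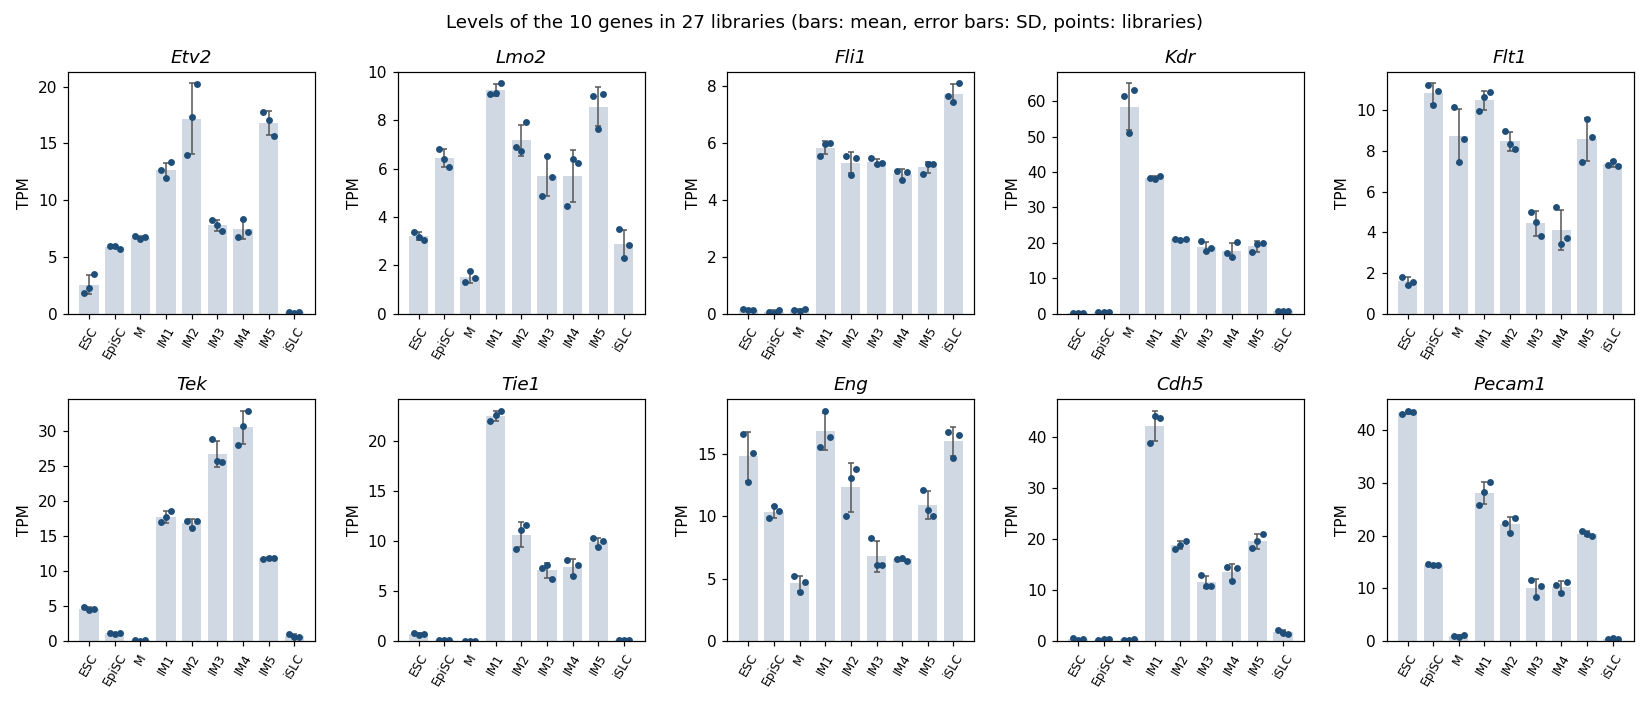
TPM of each gene in the 27 libraries, by group along the x axis. Bars are means of 3 libraries, error bars are SD and points are libraries. *Kdr* is highest in M, *Cdh5*, *Tie1* and *Lmo2* in IM1, *Tek* in IM4, *Pecam1* in ESC and *Fli1* in iSLC.

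In the transcription factor group, *Etv2* (ENSMUSG00000006311, chromosome 7, 30633616 to 30635852, GRCm38) was present at every stage except iSLC. Its TPM was 1.85, 2.29 and 3.47 in ESC, 5.99, 5.98 and 5.73 in EpiSC and 6.81, 6.57 and 6.74 in M. It then stood at 12.62, 11.97 and 13.33 in IM1. IM2 had 13.96, 17.36 and 20.2 and IM5 had 17.74, 17.11 and 15.65. In IM3 the values were 8.25, 7.78 and 7.3, and in IM4 they were 6.74, 8.36 and 7.15. The libraries of IM2 and IM5 overlapped, and those of IM4 overlapped both IM3 and M, while IM1, IM2 and IM5 all lay above IM3 and IM4. In iSLC *Etv2* was at 0.14, 0.03 and 0.13 TPM, which rests on 5, 1 and 4 counts.

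*Lmo2* (ENSMUSG00000032698, chromosome 2, 103957986 to 103981878) was lowest in M and highest in IM1. Its TPM was 3.37, 3.17 and 3.06 in ESC, 6.83, 6.41 and 6.07 in EpiSC and 1.3, 1.76 and 1.49 in M. In IM1 it was 9.11, 9.13 and 9.53, above every library of the earlier stages. IM1 and IM5 were not told apart (edgeR, adjusted p = 0.31). IM5 (7.64 to 9.07 TPM) and IM2 (6.71 to 7.92 TPM) overlapped, and IM3 (4.88 to 6.54 TPM) overlapped IM4 (4.47 to 6.41 TPM). In iSLC it was 3.49, 2.32 and 2.84, a range that takes in the ESC libraries.

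*Fli1* (ENSMUSG00000016087, chromosome 9, 32422204 to 32542861) differed between the stages up to M and the IM stage. It lay between 0.01 and 0.17 TPM in all 9 libraries of ESC, EpiSC and M, and between 4.69 and 6 TPM in all 15 IM libraries. The 5 IM conditions lay close together, with IM1 highest (5.56, 5.97 and 6 TPM) and IM4 lowest (5.01, 4.69 and 4.99 TPM). In iSLC it was 7.66, 7.45 and 8.1 TPM, above every IM library. Against IM1, the next highest group, the adjusted p was 0.0479 by edgeR, over the 0.01 used here.

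Among the receptors, *Kdr* (ENSMUSG00000062960, chromosome 5, 75932827 to 75978458) appeared in M. Its TPM was 0.19 to 0.27 in ESC and 0.41 to 0.45 in EpiSC, and then 61.3, 50.88 and 63.07 in M. In IM1 it was 38.22, 37.92 and 38.98. The RA-treated conditions lay lower still, with 21.08, 20.9 and 20.98 for IM2 and 20.37, 17.6 and 18.56 for IM3. IM4 had 17.15, 15.94 and 20.24 and IM5 had 17.31, 19.68 and 19.98. IM3, IM4 and IM5 overlapped with each other. In iSLC *Kdr* was at 0.72, 0.7 and 0.73 TPM.

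*Flt1* (ENSMUSG00000029648, chromosome 5, 147561604 to 147726011), which binds VEGF tightly and signals weakly, had the flattest course after ESC. Its TPM was 1.81, 1.39 and 1.54 in ESC and 11.25, 10.28 and 10.95 in EpiSC. The ranges of EpiSC, IM1 (9.95 to 10.88), M (7.48 to 10.14), IM5 (7.47 to 9.55) and IM2 (8.1 to 8.98) ran into one another in that order. IM3 (5.02, 4.49 and 3.81) and IM4 (5.22, 3.41 and 3.72) lay below all of these. The iSLC libraries were at 7.3, 7.5 and 7.26 TPM, where those of *Kdr* were under 1. The TPM ratio of *Flt1* to *Kdr* was 0.149 ± 0.0149 (SD, n = 3) in M, 0.236 ± 0.0266 in IM3 and 10.3 ± 0.4 in iSLC.

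*Tek* (ENSMUSG00000006386, chromosome 4, 94739289 to 94874976), the receptor of the angiopoietins, was at 4.83, 4.41 and 4.57 TPM in ESC, 1.06, 1.04 and 1.06 in EpiSC and 0.16, 0.04 and 0.08 in M. It was 16.96, 17.79 and 18.67 in IM1 and 17.17, 16.19 and 17.21 in IM2, 2 groups whose libraries overlapped. IM3 (28.9, 25.82 and 25.6) and IM4 (28.13, 30.77 and 32.9) lay above every other library. IM5, at 11.72, 11.94 and 11.84 TPM, was lowest of the IM conditions. In iSLC it was 0.94, 0.59 and 0.56.

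*Tie1* (ENSMUSG00000033191, chromosome 4, 118471191 to 118490061) was close to absent before the IM stage. It stood at 0.83, 0.59 and 0.66 TPM in ESC, at most 0.08 in EpiSC and 0.02, 0.01 and 0.03 in M, which is 3, 1 and 4 counts. It was 21.97, 22.52 and 22.97 in IM1 and lower in every library of the other IM conditions. IM2 had 9.21, 11.03 and 11.57 TPM and IM5 had 10.24, 9.41 and 10.01. IM3 had 7.26, 7.59 and 6.22 TPM and IM4 had 8.09, 6.52 and 7.56. In iSLC it was 0.04, 0.07 and 0.06 TPM, from 7, 8 and 9 counts. *Tek* and *Tie1* thus kept no fixed ratio. *Tek* over *Tie1* in TPM was 0.792 ± 0.0205 (SD, n = 3) in IM1, 1.2 ± 0.0637 in IM5, 1.61 ± 0.223 in IM2, 3.83 ± 0.379 in IM3 and 4.18 ± 0.638 in IM4, with the ranges of IM3 and IM4 overlapping.

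*Eng* (ENSMUSG00000026814, chromosome 2, 32646595 to 32682669) was present in every group. Its TPM was 16.63, 12.75 and 15.1 in ESC, 9.84, 10.8 and 10.4 in EpiSC and 5.17, 3.94 and 4.73 in M. IM1 was at 15.59, 18.49 and 16.4, IM2 at 10.06, 13.11 and 13.81 and IM5 at 12.15, 10.5 and 10. IM3 (8.23, 6.11 and 6.06) and IM4 (6.59, 6.66 and 6.38) were lower. The iSLC libraries, at 16.79, 14.7 and 16.57, overlapped those of IM1 and ESC. Of its exonic bases, 1.5% overlap *Fpgs* on the other strand. The strand setting of the counting is not given in the sources used here.

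Of the junction genes, *Cdh5* (ENSMUSG00000031871, chromosome 8, 104101625 to 104144511), the most specific endothelial gene of the set, was between 0.19 and 0.46 TPM in all 9 libraries of ESC, EpiSC and M. In IM1 it was 38.86, 44.25 and 43.75. IM2 (18.02, 18.88 and 19.66) and IM5 (18.18, 19.55 and 21.08) overlapped and lay above IM3 (12.88, 10.78 and 10.84) and IM4 (14.44, 11.78 and 14.33), which also overlapped. In iSLC it was 2.1, 1.63 and 1.43 TPM, above the levels before the IM stage.

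*Pecam1* (ENSMUSG00000020717, chromosome 11, 106654217 to 106750628) is a surface marker of mouse ESC as well as of endothelium and platelets. Its highest levels were in ESC, at 43.16, 43.71 and 43.58 TPM, where *Cdh5* and *Tie1* were under 1. It was 14.64, 14.39 and 14.36 in EpiSC and 0.91, 0.72 and 1.13 in M. It returned in IM1 at 25.9, 28.33 and 30.18, in IM2 at 22.39, 20.55 and 23.43 and in IM5 at 20.89, 20.38 and 19.84, with IM3 (11.61, 8.24 and 10.42) and IM4 (10.7, 9.09 and 11.09) lower and overlapping. It was 0.38, 0.49 and 0.32 in iSLC. *Pecam1* and *Lmo2* are also on a marker list of lateral plate mesoderm that the study used.

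A summed level of 10 endothelial marker genes (*Cdh5*, *Pecam1*, *Tie1*, *Cldn5*, *Emcn*, *Esam*, *Egfl7*, *Robo4*, *Ecscr* and *Mmrn2*) was also read. *Cdh5*, *Pecam1* and *Tie1* belong to the set itself, so this sum partly restates their levels and is no independent check of the endothelial label. None of the 10 markers was at 0 in every library of any group. Their summed level was 35.6 to 41 CPM in M and 46 to 48.1 CPM in iSLC, against 325 to 348 CPM in IM1, 172 to 195 CPM in IM2, 182 to 208 CPM in IM5, 121 to 134 CPM in IM4 and 114 to 128 CPM in IM3. ESC had 152 to 166 CPM, above IM3, and EpiSC 80.2 to 85.2 CPM. In both *Pecam1* was at over 14 TPM and *Cdh5* under 1 TPM. The markers did not move as a block in iSLC, where *Cldn5* was at 0.06 TPM and *Tie1* at 0.0567 TPM while *Emcn* was at 25 ± 1.71 TPM (SD, n = 3), against group means of 1.37 to 3.28 TPM in the IM conditions.

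From ESC to EpiSC, 6 of the 10 genes were DE, 3 higher and 3 lower. Of all genes tested 8.07% were DE, 3.75% higher and 4.32% lower. *Flt1* rose by a log2 fold change of 2.89 ± 0.111 (SE; edgeR, adjusted p = 1.08e-17), *Etv2* rose by 1.24 ± 0.171 and *Lmo2* by 1.07 ± 0.135. *Tie1* fell by 3.26 ± 0.226 on the log2 scale, *Tek* by 2.04 ± 0.0973 and *Pecam1* by 1.55 ± 0.0919. *Kdr* was higher by 0.93 ± 0.158 and *Eng* was lower at -0.50 ± 0.111, both under the fold minimum. *Fli1* differed by -0.69 ± 0.35 (edgeR, adjusted p = 0.191) and *Cdh5* by -0.22 ± 0.252 (edgeR, adjusted p = 0.459). The 2 groups lie on opposite sides of the red blood cell split. The *Lmo2*, *Etv2* and *Tie1* changes were under the fold minimum with limma on log2(TPM + 1), and that of *Tie1* missed the count minimum when only the 2 groups were fitted.

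From EpiSC to M, *Kdr* was the gene of the 10 that rose, by a log2 fold change of 7.00 ± 0.0975 (SE; edgeR, adjusted p = 5.54e-27). *Pecam1* fell by 4.09 ± 0.126 on the log2 scale, *Tek* by 3.61 ± 0.187, *Lmo2* by 2.15 ± 0.147 and *Eng* by 1.26 ± 0.119. These are 5 of 10 genes, 1 higher and 4 lower, beside 14.5% of all genes tested, 6.79% higher and 7.72% lower. *Tie1* differed by -1.84 ± 0.503 (adjusted p = 0.00213 by edgeR), which counts only without the read count minimum, where 17.3% of all genes were lower. *Flt1* was lower at -0.35 ± 0.0952, under the fold minimum. *Etv2* (0.09 ± 0.153), *Fli1* (0.58 ± 0.35) and *Cdh5* (0.01 ± 0.255) were not DE, with adjusted p of 0.616, 0.255 and 0.992 by edgeR. The *Tek* change rests on 24, 5 and 13 counts in M, and without replicate 1 of M it was -4.24. The *Eng* value was -0.99 with a GC offset and the *Tek* value -0.91 with limma on log2(TPM + 1), both under the fold minimum. The early mesoderm thus had *Kdr* at 58.4 ± 6.59 TPM (SD, n = 3) beside *Cdh5* at 0.267 ± 0.0643 TPM. The median log2 difference of the 10 genes was -0.81, against -0.06 over all genes tested.

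From M to IM1, 7 of 10 genes rose and 0 fell, where 15.7% of all genes tested were DE, 9.72% higher and 5.94% lower. In M, mean normalized counts were 2.87 for *Tie1*, 7.78 for *Fli1*, 15.3 for *Tek*, 39 for *Cdh5* and 74.5 for *Lmo2*. These means lie under the read count minimum, so these genes could be called only as higher and a fall could not be called. *Tie1* rose by a log2 fold change of 10.00 ± 0.196 (SE; edgeR, adjusted p = 3.67e-24), *Tek* by 7.48 ± 0.14, *Cdh5* by 7.20 ± 0.151, *Fli1* by 6.38 ± 0.156, *Pecam1* by 4.88 ± 0.125, *Lmo2* by 2.63 ± 0.145 and *Eng* by 1.80 ± 0.118. The *Tie1* change rests on 8 counts in the M libraries together, against 11824 in IM1. Their depth-scaled ratio was 1069, with a 95% interval of 542 to 2476 that covers counting error only. The *Tek* change also rests on few counts in M (24, 5 and 13), and without replicate 1 of M it was 8.11. That of *Fli1* rests on 6, 8 and 7 counts in M. Over all alternatives the lowest values were 4.5 for *Tie1*, 4.1 for *Tek* and 2.6 for *Fli1*, so the sizes of these changes depend on the processing. *Etv2* was higher by 0.84 ± 0.148 and *Kdr* was lower, at -0.71 ± 0.067, both under the fold minimum. *Flt1* differed by 0.16 ± 0.0952 (edgeR, adjusted p = 0.137). The median log2 difference was 3.75 for the 10 genes and 0.00 over all genes tested. M and IM1 lie on opposite sides of the red blood cell split.

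The step from M to IM3, which lie on the same side of that split, gave 6 higher and 2 lower among the 10 genes, beside 14.9% of all genes tested, 9.26% higher and 5.66% lower. Here too *Tie1*, *Fli1*, *Tek*, *Cdh5* and *Lmo2* could be called only as higher, given their counts in M. *Tie1* rose by a log2 fold change of 8.24 ± 0.216, *Tek* by 7.98 ± 0.138, *Fli1* by 6.17 ± 0.159, *Cdh5* by 5.24 ± 0.157, *Pecam1* by 3.33 ± 0.13 and *Lmo2* by 1.70 ± 0.153 (edgeR, adjusted p of at most 1.84e-10). *Kdr* fell by 1.82 ± 0.0698 on the log2 scale and *Flt1* by 1.21 ± 0.102. *Etv2* differed by 0.03 ± 0.157 and *Eng* by 0.41 ± 0.124. Without replicate 1 of M the *Tek* value was 8.62. Over all alternatives the lowest values were 3.0 for *Tie1*, 4.7 for *Tek* and 2.5 for *Fli1*, which had few counts in M. The *Flt1* change was under the fold minimum with limma on log2 TPM. The comparisons of IM1 and IM3 with M share the M libraries.

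**Figure D2:**
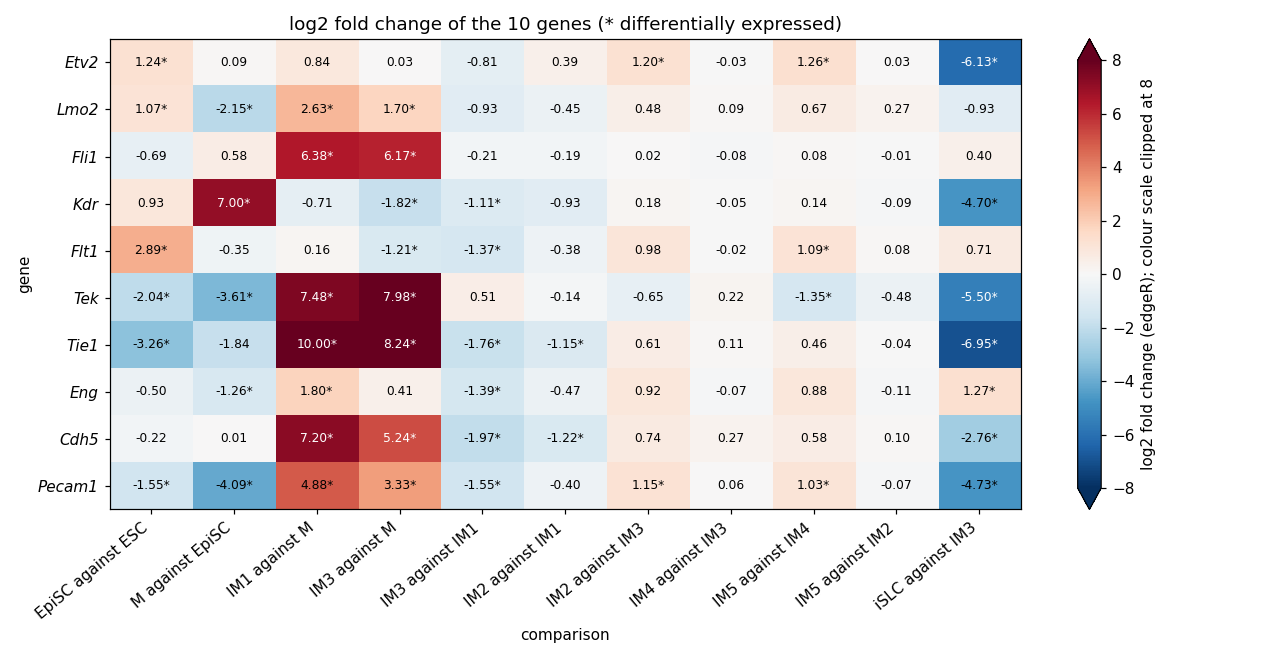
log2 fold changes from edgeR for each gene (rows) in 11 comparisons (columns), with a star where the gene was DE. *Kdr* is the only gene DE and higher in M against EpiSC, most genes are higher in IM1 and IM3 against M, and 6 genes are DE and lower in iSLC against IM3.

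The conditions at the IM stage differ by RA, Activin A and CHIR99021. With RA alone added (IM3 against IM1), 0 genes rose and 6 fell, and 6.34% of all genes tested were DE, 2.62% higher and 3.72% lower. *Cdh5* fell by 1.97 ± 0.0998 on the log2 scale (SE; edgeR, adjusted p = 6.43e-15), *Tie1* by 1.76 ± 0.0949, *Pecam1* by 1.55 ± 0.0957, *Eng* by 1.39 ± 0.116, *Flt1* by 1.37 ± 0.101 and *Kdr* by 1.11 ± 0.0688. *Lmo2* (-0.93 ± 0.129) and *Etv2* (-0.81 ± 0.15) were lower but under the fold minimum. *Tek* was the gene with a positive value, 0.51 ± 0.075 (adjusted p = 2.75e-06 by edgeR), also under the fold minimum. *Fli1* differed by -0.21 ± 0.0881, with an adjusted p of 0.0489 by edgeR. With limma on log2(TPM + 1) the *Kdr* value was -0.99, under the fold minimum. The median was -1.24 for the 10 genes and 0.00 over all genes tested. The red blood cell genes were at 6.14 to 19.6 CPM in IM3 and 0.923 to 1.38 CPM in IM1, and their part in these differences was not tested.

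IM2, which has RA and Activin A, lies on the same side as IM1. The comparison was added after the data had been seen. Against IM1, *Cdh5* fell by 1.22 ± 0.0957 on the log2 scale and *Tie1* by 1.15 ± 0.0913 (edgeR, adjusted p = 8.41e-11 and 1.13e-10), so 2 of 10 genes were DE, beside 3.51% of all genes tested, 1.94% higher and 1.56% lower. *Kdr* (-0.93 ± 0.068), *Eng* (-0.47 ± 0.11), *Lmo2* (-0.45 ± 0.123), *Pecam1* (-0.40 ± 0.0901) and *Flt1* (-0.38 ± 0.0954) were lower under the fold minimum. *Tek* differed by -0.14 ± 0.0751 and *Fli1* by -0.19 ± 0.0868, with adjusted p of 0.15 and 0.0954 by edgeR, and *Etv2* by 0.39 ± 0.14. In percent of the IM1 mean TPM, *Cdh5* was at 44.6 ± 1.94% (SD, n = 3) in IM2 and at 27.2 ± 2.83% in IM3. *Tie1* was at 47.2 ± 5.5% in IM2 and at 31.2 ± 3.18% in IM3. *Kdr* was at 54.7 ± 0.235% and 49.1 ± 3.67%, while *Fli1* was at 90.8 ± 6.34% and 91.5 ± 1.83%.

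**Figure D3:**
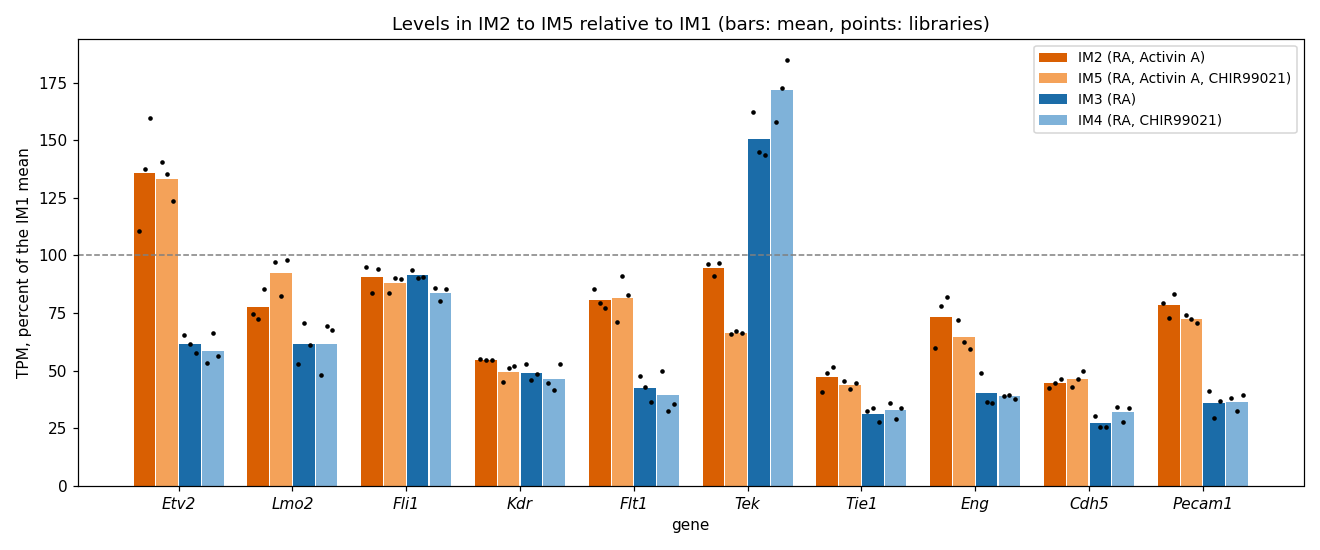
TPM of each gene in IM2 to IM5 as a percent of its mean in IM1 (dashed line at 100). Bars are means and points are the 3 libraries of a condition. *Tek* in IM3 and IM4 lies above 100, with means of 150.4% and 172%, and *Etv2* in IM2 and IM5 lies above 100 in every library.

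Activin A was added to RA in IM2 against IM3 and, with CHIR99021 present, in IM5 against IM4. Without CHIR99021, *Etv2* rose by a log2 fold change of 1.20 ± 0.15 (SE; edgeR, adjusted p = 3.46e-07) and *Pecam1* by 1.15 ± 0.0961, which is 2 of 10 genes beside 3.8% of all genes tested, 2.46% higher and 1.34% lower. *Flt1* (0.98 ± 0.102), *Eng* (0.92 ± 0.117), *Cdh5* (0.74 ± 0.0992), *Tie1* (0.61 ± 0.0951) and *Lmo2* (0.48 ± 0.131) were higher under the fold minimum, and *Tek* was lower at -0.65 ± 0.0756. *Kdr* differed by 0.18 ± 0.0689 and *Fli1* by 0.02 ± 0.0892. Leaving out replicate 1 of IM3 gave 4 DE genes, with *Flt1* (1.09) and *Eng* (1.06) added, leaving out replicate 1 of IM2 added *Eng* (1.05), and leaving out replicate 3 of IM2 added *Flt1* (1.01). With CHIR99021, *Etv2* rose by 1.26 ± 0.147, *Flt1* by 1.09 ± 0.1 and *Pecam1* by 1.03 ± 0.0946, and *Tek* fell by 1.35 ± 0.0764 on the log2 scale (edgeR, adjusted p of at most 9.94e-08), which is 4 of 10 genes beside 4.09%, 2.63% higher and 1.46% lower. *Eng* (0.88 ± 0.116), *Lmo2* (0.67 ± 0.127), *Cdh5* (0.58 ± 0.0973) and *Tie1* (0.46 ± 0.0937) were higher under the fold minimum, while *Kdr* (0.14 ± 0.0686) and *Fli1* (0.08 ± 0.0883) had adjusted p of 0.107 and 0.465 by edgeR. Leaving out replicate 2 of IM4 left 2 DE genes, since *Pecam1* (0.96) and *Flt1* (0.98) then missed the fold minimum. Without replicate 1 of IM5, *Pecam1* (0.97) missed it as well, and with limma on log2(TPM + 1) *Pecam1* (0.92) and *Flt1* (0.91) did. With an offset for GC content, the *Etv2* difference was 0.92 in IM2 against IM3 and 0.88 in IM5 against IM4, under the fold minimum, and that of *Flt1* in IM2 against IM3 was 1.01, past it. Both comparisons cross the red blood cell split, at 0.375 to 0.587 CPM in IM2 and 0.664 to 0.859 CPM in IM5 against 6.14 to 19.6 CPM in IM3 and 8.32 to 19.7 CPM in IM4.

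The effect of Activin A on *Tek* differed with CHIR99021. The test of the difference itself gave -0.70 ± 0.107 (SE; edgeR, adjusted p = 0.0012), which passes on p and is under the fold minimum. None of the other 9 genes passed it, with adjusted p of at least 0.707 by edgeR, and 0.0336% of all genes tested were DE in it. Among the IM conditions, mean *Tek* was highest in IM4 and lowest in IM5, the 2 with CHIR99021. The *Tek* libraries of IM4 and IM3 overlapped, and the 2 groups were not told apart (edgeR, adjusted p = 0.144).

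CHIR99021 itself, added to RA (IM4 against IM3), gave 0 DE genes of 10, and 2 at an unadjusted p under 0.05 (*Tek* at 0.22 ± 0.0746 and *Cdh5* at 0.27 ± 0.1, with adjusted p of 0.144 and 0.225 by edgeR). The other 8 lay between -0.08 (*Fli1*) and 0.11 (*Tie1*). DESeq2 also gave 0. Of all genes tested, 0.101% were DE. Added to RA and Activin A (IM5 against IM2), it gave 0 DE genes by edgeR and by DESeq2, and 2 at an unadjusted p under 0.05. *Tek* differed by -0.48 ± 0.0763 (adjusted p = 0.000128 by edgeR) and *Lmo2* by 0.27 ± 0.124, the other 8 lay between -0.11 (*Eng*) and 0.10 (*Cdh5*), and the background was 0.235%. Both comparisons lie within a side of the red blood cell split.

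The study grouped IM3 and IM4 against IM1, IM2 and IM5. In that comparison 0 genes rose and 5 fell, beside 4.21% of all genes tested, 1.56% higher and 2.65% lower. *Pecam1* fell by 1.23 ± 0.0631 on the log2 scale (SE; edgeR, adjusted p = 4.7e-15), *Flt1* by 1.15 ± 0.0666, *Etv2* by 1.09 ± 0.0981, *Eng* by 1.08 ± 0.0769 and *Cdh5* by 1.05 ± 0.0648. *Tie1* (-0.93 ± 0.062), *Lmo2* (-0.68 ± 0.0843) and *Kdr* (-0.48 ± 0.0448) were lower under the fold minimum, *Fli1* differed by -0.12 ± 0.0574 (edgeR, adjusted p = 0.0824), and *Tek* was higher at 0.87 ± 0.0479 (adjusted p = 1.89e-14 by edgeR), also under it. The count was 3 with a GC offset, with *Etv2* and *Eng* lost, and 1 with limma on log2(TPM + 1), where *Pecam1* remained. This grouping coincides with the red blood cell split among the IM conditions, and the 2 cannot be told apart.

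In iSLC against IM3, 1 gene rose and 6 fell, where 19.2% of all genes tested were DE, 10.3% higher and 8.92% lower. *Tie1* fell by 6.95 ± 0.18 on the log2 scale (SE; edgeR, adjusted p = 6.18e-22), *Etv2* by 6.13 ± 0.291, *Tek* by 5.50 ± 0.105, *Pecam1* by 4.73 ± 0.148, *Kdr* by 4.70 ± 0.0915 and *Cdh5* by 2.76 ± 0.118. For *Tie1* the 3 iSLC libraries together held 24 counts and those of IM3 held 2144, a depth-scaled ratio of 126 with a 95% counting interval of 84.4 to 197. For *Etv2* it was 10 counts against 518, with a ratio of 73 and an interval of 39.4 to 153. *Eng* rose by a log2 fold change of 1.27 ± 0.117 (edgeR, adjusted p = 2.08e-10), and by 0.98 with a GC offset, under the fold minimum. *Flt1* (0.71 ± 0.102) and *Fli1* (0.40 ± 0.0882) were higher and *Lmo2* (-0.93 ± 0.14) lower, under the fold minimum. The *Lmo2* value was past it, at -1.01 and -1.11, without replicate 1 of IM3 and without replicate 1 of iSLC, and at -1.05 with a GC offset. The median was -3.73 for the 10 genes and 0.00 over all genes tested. IM3 and iSLC lie on opposite sides of the red blood cell split, and sorting for CFP was part of making the iSLC group.

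The rest of the pathway was read from 5 lists that hold 54 further genes. They were drawn up with earlier results of these data known. From M to IM1, 40 of the 54 were DE higher and 1 lower, with a median log2 difference of 3.34. From M to IM3 it was 33 higher and 1 lower. In both comparisons, listed genes under the read count minimum in M, such as *Erg* and *Icam2*, could be called only as higher. In IM3 against IM1, 0 were higher and 28 lower, with a median of -1.08. In IM2 against IM3 it was 14 higher and 0 lower, and in IM5 against IM4 15 higher and 0 lower. In iSLC against IM3, 10 were higher and 21 lower. The background shares given above hold for these counts.

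Of 10 hemangioblast and blood-fate transcription factors, 4 rose from M to IM1. *Tal1*, the partner of Lmo2 in blood formation, rose by 4.56 ± 0.196 on the log2 scale (edgeR, adjusted p = 3.63e-17), *Gata2* by 3.41 ± 0.0704 and *Runx1*, needed for blood stem cells to leave the endothelium, by 2.19 ± 0.111, with *Hhex* as the other. Between IM1 and IM3, *Tal1* fell by 1.28 ± 0.148, *Gata2* by 1.06 ± 0.061 and *Hhex* by 1.10 ± 0.111. Between IM3 and iSLC, *Tal1* fell by 4.27 ± 0.226 and *Gata2* by 2.67 ± 0.0717. *Myb* behaved otherwise, with a rise of 2.16 ± 0.125 in EpiSC against ESC and a fall of 5.25 ± 0.155 in M against EpiSC.

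Of 11 ETS and other vascular transcription factors, 10 rose from M to IM1. *Erg*, an ETS factor that maintains endothelium, rose by 8.26 ± 0.282 (edgeR, adjusted p = 2.73e-19), from 1.87 ± 2.28 to 601 ± 8.15 normalized counts (SD, n = 3). *Sox18* rose by 7.33 ± 0.194 and *Foxc2* by 5.80 ± 0.22. With RA (IM3 against IM1), *Sox17* fell by 2.54 ± 0.143, *Foxc1* by 2.34 ± 0.107 and *Sox18* by 2.34 ± 0.122, with *Sox7* and *Erg* also lower. Toward iSLC, *Sox18* fell by 4.49 ± 0.198, *Sox7* by 3.15 ± 0.171 and *Erg* by 2.85 ± 0.192, and *Elk3*, *Mef2c* and *Epas1* rose. *Erg* and *Fli1*, which belong to the same branch of the ETS family, were thus apart in iSLC, at 0.427 and 7.74 TPM.

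Of 8 VEGF ligands, neuropilins and *Flt4*, 7 rose from M to IM1, led by *Vegfc* (4.70 ± 0.0887), *Vegfa* (2.48 ± 0.0588) and *Nrp1* (1.98 ± 0.0588). *Nrp1*, a co-receptor of Kdr, and *Nrp2* had already risen from EpiSC to M together with *Kdr*, by 5.51 ± 0.084 and 4.66 ± 0.0749 (edgeR, adjusted p = 3.46e-26 and 8.7e-26). With RA alone, *Vegfc* fell by 2.04 ± 0.072, *Nrp2* by 1.55 ± 0.0615 and *Flt4* by 1.52 ± 0.0773. In iSLC against IM3, the ligand *Vegfa* rose by 2.11 ± 0.057 and *Vegfd* by 3.10 ± 0.129 while *Kdr*, a receptor of VEGF-A, fell. *Vegfa* was at 194 TPM in iSLC and 40.3 TPM in IM3.

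Among 9 angiopoietins, VE-PTP and receptor partners of endoglin, *Angpt1* (5.72 ± 0.18) and *Angpt2* (5.46 ± 0.119), the ligands of Tek, rose from M to IM1 together with *Acvrl1* (4.81 ± 0.104), the receptor that pairs with endoglin. In IM3, against IM1, *Acvrl1* fell by 2.42 ± 0.0865 and *Ptprb*, which codes for VE-PTP, by 1.71 ± 0.108 (edgeR, adjusted p = 5.92e-18 and 5.24e-13). In iSLC, against IM3, *Angpt1* fell by 3.18 ± 0.132, while *Ptprb* rose by 1.79 ± 0.108 and *Tgfbr2* by 1.68 ± 0.0749.

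Of 16 mature endothelial genes, 14 rose from M to IM1. *Icam2*, an adhesion molecule of endothelium, rose by 9.03 ± 0.351, from 1.08 ± 1.03 to 643 ± 70.7 normalized counts, *Cd93* by 7.49 ± 0.152 and *Cd34* by 5.47 ± 0.151 (edgeR, adjusted p of at most 3.31e-21). The gene that fell was *Aplnr*, the apelin receptor of early mesoderm and vessels, at -1.91. *Aplnr* had risen with *Kdr* from EpiSC to M by 3.98 ± 0.113. In IM3 against IM1, 14 of the 16 fell, with *Nos3* (-2.61 ± 0.126), *Cd34* (-2.17 ± 0.116) and *Icam2* (-1.92 ± 0.176) in front. In iSLC against IM3, 10 fell, with *Cldn5*, a tight junction gene, at -6.91 ± 0.261, *Aplnr* at -5.75 ± 0.184 and *Icam2* at -4.56 ± 0.286. The 2 that rose were *Emcn* (3.39) and *Cd93* (3.03), named after their values were seen. *Cd93* went from 819 ± 61.9 to 6689 ± 164 normalized counts (SD, n = 3), and *Emcn* from 108 ± 9.78 to 1128 ± 62.2.

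**Figure D4:**
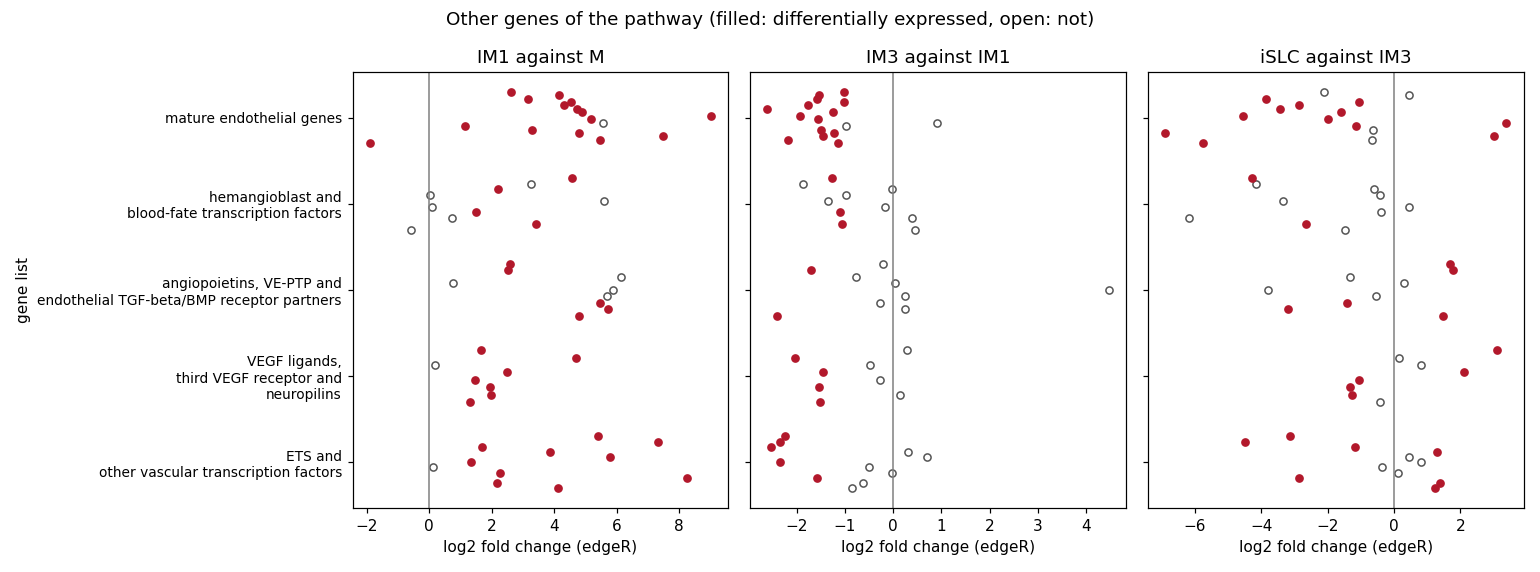
log2 fold changes from edgeR of the 54 other pathway genes, by list, in 3 comparisons. Filled points are DE and open points are not. In IM1 against M, 40 filled points lie to the right of 0 and 1 to the left. In IM3 against IM1 all 28 lie to the left, and in iSLC against IM3 they lie on both sides.

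Markers of blood cells were read in the same libraries. Embryonic erythroid genes (5 in all) summed to 26.9 to 31.7 CPM in IM3 and 35.8 to 56.5 CPM in IM4, against 6.33 to 9.08 CPM in IM1, 1.89 to 2.23 CPM in IM2, 4.02 to 5.32 CPM in IM5 and at most 0.573 CPM in ESC, EpiSC, M and iSLC. They were thus highest in the conditions where *Tek* was highest and most of the other endothelial genes were lowest of the IM conditions. The 6 genes of megakaryocytes and platelets, cells that also carry Pecam1, summed to 8.8 to 9.2 CPM in IM1, 45.3 to 49.5 CPM in IM2, 42.3 to 46.7 CPM in IM3, 30.8 to 35.7 CPM in IM4 and 22.9 to 28.2 CPM in IM5, and to at most 7.05 CPM in the other groups. Leukocyte and macrophage genes (6) summed to at most 17 CPM in any library. Pluripotency genes (4) summed to 1928 to 2167 CPM in ESC and at most 50.4 CPM in the IM libraries. The part of these cells in the levels of the 10 genes was not tested.

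The genes whose course over the 9 group means was most like that of each member, by Pearson's r of log2(TPM + 1) among 15259 genes, are a description of 9 points. *Tie1* was most like *Icam2* (r = 0.995, Spearman's rho = 1), *Fgfr4* and *Lyl1*, and *Cdh5* was most like *Abcc3* (r = 0.997, rho = 1), *Stab1* and *Rab7*. *Tek* was most like *Kif16b* (r = 0.99, rho = 0.983), *Alkbh5* and *Gm26982*, *Kdr* most like *Prdm6* (r = 0.99, rho = 0.983), *Rasgrp3* and *Nsmce2*, and *Fli1* most like *Adam12* (r = 0.998, rho = 0.85), *Akt1* and *Ahnak2*. By Spearman's rho, *Adam12*, *Akt1* and *Ahnak2* ranked only 583, 485 and 441 for *Fli1*. Some matches of other genes also ranked low by rho, such as *Rasgrp3* for *Kdr* (260) and *Stab1* for *Cdh5* (220). *Apba3* for *Eng* ranked 178 and *2310033P09Rik* for *Flt1* 166. *Etv2* was most like *Sgsm1* (r = 0.99), *Nubp1* and *Tedc2*, *Pecam1* most like *Reep6* (r = 0.99), *Slc3a2* and *Tagln3*, and *Lmo2* most like *Atp5g3* (r = 0.98), *Ptp4a1* and *Mrps18a*. *Eng* (*Hecw2*, *Scn3b* and *Apba3*, r = 0.97 to 0.94) and *Flt1* (*2310033P09Rik*, *Rex1bd* and *Zfp36l2*, r = 0.96 to 0.93) had the least close companions. Among the members themselves, *Cdh5* and *Tie1* were most alike (r = 0.97), followed by *Tek* and *Tie1* (r = 0.90), and *Kdr* and *Eng* were least alike (r = -0.49).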

How the data were processed

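Bulk RNA-seq of 27 libraries (9 groups of 3) was used. The authors trimmed paired reads with cutadapt 1.9.1 and quantified genes on GRCm38 with STAR 2.5.2a and RSEM 1.3.0, per the submitters' processing notes and the methods. Replicates were not pooled. The deposited expected counts are RSEM's estimated fragments for each gene and are not normalized across libraries. The TPM and FPKM values that the authors deposited are scaled per effective length and library; FPKM served as a check of the order of levels only.

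Gene symbols and positions came from GENCODE M21 (GRCm38) and matched 99.09% of the listed genes. Expected counts were rounded, filtered with filterByExpr (20839 genes), scaled by TMM and fitted with edgeR 4.0.16 (R 4.3.3; glmQLFit, glmQLFTest) in 1 model over all groups, with Benjamini-Hochberg adjustment. The DE thresholds were those of the study (adjusted p 0.01, fold 2, read count 100). Groups and replicate numbers came from the labels. The scripts were tested on simulated data. Alternatives used DESeq2 1.42.0, limma 3.58.1 on log2(TPM + 1) or log2(TPM + 0.1), a GC offset, a replicate block, other filters and scalings, only the groups compared, and each library left out in turn. Intervals on count ratios cover counting error only. A floor of 3 counts marked genes not detectable.

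The 10 genes and all lists were chosen with earlier results of these data known. All 10 genes are given in every comparison, by value or, where none was DE, by range. The genes most like each (3 per member) were named by rule. Genes of the lists were named from up to the 3 largest DE changes per list and comparison, except *Hhex* in IM1, *Sox7* and *Erg* in IM3, *Elk3*, *Mef2c*, *Epas1*, *Emcn* and *Cd93* in iSLC and the fall of *Aplnr*, which were chosen after their values were seen.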

Additional observations from a re-analysis of the deposited data

Results flagged for a closer look

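One result stood out because an effect differed between conditions by a test of the difference itself. The change of *Tek* with Activin A was larger with CHIR99021 (IM5 against IM4, -1.35 ± 0.0764 on the log2 scale, SE) than without (IM2 against IM3, -0.65 ± 0.0756). The difference was -0.70 ± 0.107 (edgeR, adjusted p = 0.0012). All 3 IM5 libraries (11.72, 11.94 and 11.84 TPM) lay below all 3 of IM2 (16.19 to 17.21 TPM), and its range on leaving out 1 library at a time was -0.77 to -0.63. Both comparisons cross the split by red blood cell genes, whose part was not tested.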

How the results depend on the processing

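Over all alternatives, 2747 values of the 130 gene and comparison pairs were computed. None that was called changed sign, 44 lost their call and 46 gained one. A further 18 values of at most 0.22 in size, called neither in the reported fit nor in the alternative, changed sign in 56 cases. Most changes sat at the fold minimum. Without it, 8 genes passed in IM2 against IM3, 8 in IM5 against IM4, 1 in IM5 against IM2, 9 in IM3 and IM4 against IM1, IM2 and IM5, and 1 in the test of Activin A by CHIR99021. With a GC offset, with or without the replicate block, 3 passed in IM3 and IM4 against the rest. With limma on log2(TPM + 1), with or without a filter, 3 passed in EpiSC against ESC, 2 in IM5 against IM4 and 1 in IM3 and IM4 against the rest. The cause of these changes was not tested. Leaving out each library in turn gave 6 to 7 DE genes in EpiSC against ESC, 2 to 4 in IM2 against IM3, 2 to 4 in IM5 against IM4 and 7 to 8 in iSLC against IM3. Same-numbered libraries did not deviate together (mean correlation 0.002, from -0.173 to 0.155, over 36 pairs of groups, 0 of them with every correlation over 0.1), so the numbers were not taken to pair samples. A fit with the replicate number as a block changed 0 calls, and gave for example 6 DE genes in EpiSC against ESC, 5 in M against EpiSC and 7 in IM1 against M. Depth limits *Fli1* in ESC, EpiSC and M, *Tie1* in EpiSC and M, *Tek* in M, and *Etv2* and *Tie1* in iSLC, where libraries held few counts. *Fli1* levels in ESC, EpiSC and M also rest on effective lengths that vary between libraries.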
